A study of Homo sapiens with 24 samples.

Results

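EMP1, CRIP2, GNLY, H19, CD9, IGFBP3 and TPPP3 are 7 of the 10351 genes tested in human OCI-AML3 leukaemia cells recovered from mice. They were chosen from these measurements because their signal was near background in untreated bone marrow, high in blood and raised in marrow after CXCR4 inhibition, with no numeric limit attached. Those readings are therefore given as descriptions without a test, and tests are confined to spleen, whose arrays played no part in the choice. The spleen arrays still come from the same mice as the marrow and blood arrays.

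OCI-AML3 is an established human acute myeloid leukaemia line. The cells carried luciferase and GFP and grew in NSG mice, a NOD/SCID strain without the interleukin-2 receptor gamma chain, so the hosts lack T, B and NK cells of their own. Leukaemia cells were sorted on GFP and human CD45 from femoral marrow, spleen and peripheral blood, giving 1 array per site from each of 8 mice. The 3 control mice (mice 4, 5 and 6) were harvested on day 42 without the inhibitor. LY2510924, a peptide inhibitor of CXCR4, was injected under the skin at 2.5 mg/kg daily. Mice 1, 2 and 3 received it for 24 h and were harvested on day 41, and mice 8 and 9 received it for 72 h and were harvested on day 43. Harvest day equals treatment group, so their effects cannot be told apart. One label field spells the compound LY2510294. All 9 groups share the same engineered line, and replicates are separate mice.

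Between 13066 and 15721 of 47231 probes were detected per array. Replicate arrays correlated by at least 0.978 in control groups, and by as little as 0.894 in blood after 24 h. All 3 mice of the 24 h group and 1 control mouse were on BeadChip 1, while the other 2 control mice and both 72 h mice were on BeadChip 2. Values below are normalised log2 intensities of 1 probe per gene, so a difference of 1 is a doubling, and levels of different genes are not comparable. An array reading averages over all cells in a sort, so fewer cells with a transcript and less transcript per cell cannot be told apart.

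Marrow stroma secretes the chemokine CXCL12, and cells bearing its receptor CXCR4, blood-forming and leukaemic alike, are retained there. Inhibitors of CXCR4 release such cells into blood. The 7 genes belong to no single pathway. EMP1 and CD9 encode proteins that cross the membrane several times, CRIP2 encodes a LIM-domain protein and TPPP3 a tubulin-binding protein. GNLY and IGFBP3 encode secreted proteins, and H19 is an imprinted long non-coding RNA.

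The stretch before the transcription start is shown for the 4 genes with a single start in the RefSeq promoter table (build GRCh38.p14), because their upstream sequences differ in kind. Each run is the 250 bases before the start, 5′ to 3′ on the gene's strand, and capitals mark matches to the motifs named below. EMP1 lies at chr12:13196476-13196725, plus strand, GNLY at chr2:85694108-85694357, plus strand, H19 at chr11:2001267-2001516, minus strand and IGFBP3 at chr7:45921273-45921522, minus strand.
EMP1: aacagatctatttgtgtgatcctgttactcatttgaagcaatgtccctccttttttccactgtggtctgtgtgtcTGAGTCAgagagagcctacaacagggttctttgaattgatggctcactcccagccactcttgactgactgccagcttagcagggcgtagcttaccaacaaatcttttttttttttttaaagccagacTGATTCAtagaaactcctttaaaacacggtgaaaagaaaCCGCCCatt
GNLY: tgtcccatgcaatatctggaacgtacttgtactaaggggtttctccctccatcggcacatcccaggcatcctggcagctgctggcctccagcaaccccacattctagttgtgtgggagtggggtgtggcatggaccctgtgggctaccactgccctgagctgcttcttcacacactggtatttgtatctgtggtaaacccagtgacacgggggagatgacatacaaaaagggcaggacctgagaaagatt
H19: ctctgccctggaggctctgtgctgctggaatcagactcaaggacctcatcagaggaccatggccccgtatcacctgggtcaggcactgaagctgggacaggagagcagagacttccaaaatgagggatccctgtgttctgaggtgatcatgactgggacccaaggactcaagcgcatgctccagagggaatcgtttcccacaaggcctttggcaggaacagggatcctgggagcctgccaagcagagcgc
IGFBP3: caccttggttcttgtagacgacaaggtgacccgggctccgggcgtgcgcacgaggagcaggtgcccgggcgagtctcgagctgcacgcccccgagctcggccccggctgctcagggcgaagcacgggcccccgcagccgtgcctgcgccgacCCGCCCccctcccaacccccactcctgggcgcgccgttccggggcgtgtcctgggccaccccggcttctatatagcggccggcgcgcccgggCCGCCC

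Windows were available for 6 of the 7 genes, 12 in all, since CRIP2 and CD9 have 4 each. CpG content differed widely. The EMP1, GNLY and H19 windows hold 3, 3 and 4 CG dinucleotides, and the IGFBP3 window holds 32. The CRIP2 windows hold 3 to 42 and the CD9 windows 1 to 29. The median was 11 over 35116 promoter windows and 20 over the 12115 windows of the genes tested here. Both strands were searched for 7 motifs by their letters. The SP1 motif was GGGCGG. The AP-1 motif was TGANTCA. The cyclic AMP response element, CRE, was read as TGACGTCA. The myeloid factor PU.1 was read as GAGGAAGT. For RUNX the letters were TGTGGTT. The TATA box was searched as TATAAA and, for basic helix-loop-helix factors, the E-box as CACGTG. These motifs do not overlap within the windows printed. The AP-1 letters occur at 2 places in EMP1, 175 and 48 bases before the start, and in no window of the other 5 genes. Of all promoter windows, 6.57% hold them. The SP1 letters, in 42.6% of all windows, occur upstream of EMP1, CRIP2, CD9 and IGFBP3. The GNLY and H19 windows held none of the 7 motifs, and CRE, PU.1, RUNX, TATA box and E-box letters (in 1.65%, 2.17%, 3.65%, 10.7% and 6.34% of all windows) occurred in none of the 12. The H19 window lies before base 2001266, the outer end of a gene annotated from 1995176. Any start inside that gene was not searched. These matches describe letters only. H19 is also the host transcript of miR-675, whose mature forms are printed with the seed, bases 2 to 8, in capitals. The miRNA was not measured here.
hsa-miR-675-3p: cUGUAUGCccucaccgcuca
hsa-miR-675-5p: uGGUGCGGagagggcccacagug

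After 24 h of CXCR4 inhibition, leukaemia cells in the spleen carried more of all 7 transcripts. The rises ran from 3.8-fold for CRIP2 to 6.16-fold for GNLY, and each passed the test (limma, Benjamini-Hochberg adjusted p from 0.00161 to 0.0144). In every gene the 3 treated spleens lay above the 3 control spleens. Among all genes tested, 6.55% were called higher in this comparison and 18.9% were higher without overlap between the groups.

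EMP1, epithelial membrane protein 1, is a small membrane protein of the PMP22 family. Its control spleens read 9.74, 9.31 and 9.43, and the spleens after 24 h read 11.91, 10.71 and 12.74. After 72 h they read 8.21 and 8.58. The 24 h spleens were the highest, and the 72 h spleens lay below all controls. The 24 h rise was 2.29 ± 0.58 (standard error; limma adjusted p = 0.0144). Between 24 h and 72 h EMP1 fell, with a difference of -3.39 ± 0.65 (limma adjusted p = 0.00504), a 10.5-fold difference. At 72 h the difference from control was -1.09 ± 0.65 (limma adjusted p = 0.288).

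CD9, a tetraspanin found on platelets, leukaemia cells and many other cell types, organises membrane partners involved in adhesion and migration. Control spleens read 8.54, 8.31 and 8.22, 24 h spleens 11.74, 9.83 and 11.26 and 72 h spleens 7.72 and 8.14. Here too the 24 h values stood above every other spleen, with mouse 2 lowest of its group. CD9 rose by 2.59 ± 0.58 at 24 h (limma adjusted p = 0.00792). It then fell, with a 72 h minus 24 h difference of -3.02 ± 0.65 (limma adjusted p = 0.00928), and the 72 h difference from control was -0.43 ± 0.65 (limma adjusted p = 0.694).

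CRIP2 belongs to the cysteine-rich LIM proteins, small zinc-binding adaptors. The control spleens read 10.44, 10.26 and 10.28, the 24 h spleens 12.42, 12.25 and 12.09 and the 72 h spleens 11.40 and 10.29. The 24 h values were tightly grouped above the controls, whereas the 72 h mice split, with mouse 8 higher than mouse 9. CRIP2 rose by 1.93 ± 0.40 at 24 h (limma adjusted p = 0.00481). The 72 h spleens were lower than the 24 h spleens, at -1.41 ± 0.45 (limma adjusted p = 0.044), and differed from control by 0.52 ± 0.45 (limma adjusted p = 0.465).

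TPPP3 is a member of the tubulin polymerisation-promoting proteins, which bind microtubules. It read 7.41, 7.31 and 7.61 in control spleens, 11.44, 9.51 and 8.86 after 24 h and 9.78 and 7.78 after 72 h. Both treated groups lay above the controls, with a wide spread between mice, and they overlapped each other. The 24 h rise was 2.49 ± 0.60 (limma adjusted p = 0.0115), the 72 h difference from control 1.34 ± 0.67 (limma adjusted p = 0.217) and the 72 h minus 24 h difference -1.16 ± 0.67 (limma adjusted p = 0.232).

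GNLY encodes granulysin, a membrane-lytic protein stored in the granules of human cytotoxic T and NK cells. Control spleens read 10.30, 10.17 and 9.89, 24 h spleens 13.00, 12.15 and 13.08 and 72 h spleens 12.03 and 10.17. Every 24 h spleen exceeded every control and every 72 h spleen, and the 72 h mice again split, mouse 8 above mouse 9. GNLY rose by 2.62 ± 0.49 at 24 h (limma adjusted p = 0.00258). The 72 h minus 24 h difference of -1.65 ± 0.55 did not pass (limma adjusted p = 0.051). It passed with mouse as a random replicate block (limma adjusted p = 0.0358), without mouse 2, and among genes detected on all arrays. Skipping background correction, or using an offset of 50 in it, also gave a call. With BeadChip as a block, or without mouse 1, its spleen array alone, or mouse 3, GNLY did not pass. Nor did it with unscaled series matrix values, without the detection filter or with kept probes averaged. Without mouse 8 the difference was -2.58, and without mouse 9 it was -0.72. The 72 h difference from control was 0.98 ± 0.55 (limma adjusted p = 0.26).

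IGFBP3, a secreted carrier of insulin-like growth factors, read 7.40, 7.61 and 7.44 in control spleens, 9.99, 9.43 and 10.29 after 24 h and 8.12 and 7.99 after 72 h. The groups did not overlap, and the 72 h spleens lay between controls and 24 h. The rise at 24 h was 2.42 ± 0.40 (limma adjusted p = 0.00161). The 72 h minus 24 h difference was -1.85 ± 0.45 (limma adjusted p = 0.016), and the 72 h difference from control was 0.57 ± 0.45 (limma adjusted p = 0.423).

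H19, expressed from the maternal allele in fetal tissue and re-expressed in various tumours, read 9.82, 10.41 and 9.74 in control spleens. After 24 h it read 12.57, 11.04 and 12.21, and after 72 h 10.53 and 10.90. The 24 h spleens were the highest and did not overlap either other group. H19 rose by 1.95 ± 0.47 at 24 h (limma adjusted p = 0.0115). The 72 h minus 24 h difference was -1.22 ± 0.52 (limma adjusted p = 0.113) and the 72 h difference from control 0.73 ± 0.52 (limma adjusted p = 0.379).

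**Figure D1:**
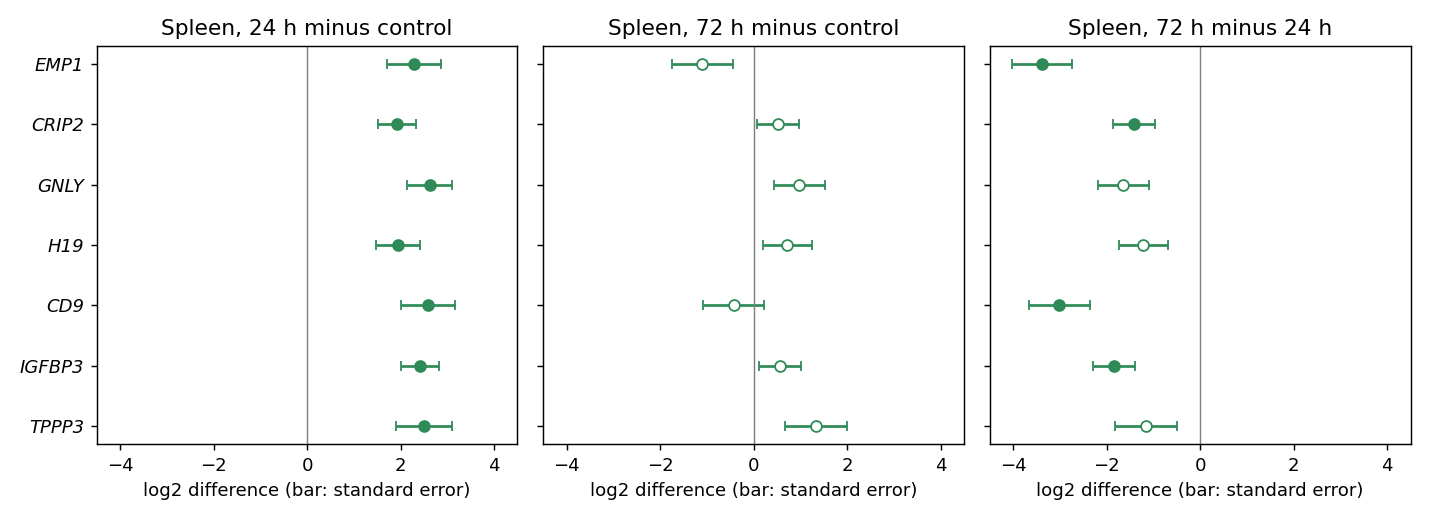
Differences in spleen for the 7 genes on the log2 scale, with the standard error from limma as bars. Filled points passed an adjusted p of 0.05. All 7 rises at 24 h were called and no 72 h difference from control was. All 7 genes were lower at 72 h than at 24 h, 4 of them called.

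Across the 7 genes, 24 h against control had a median of 2.42, beside -0.0032 over all genes. At 72 h against control 0 of 7 passed limma, 0 also at an unadjusted p under 0.05, with 0.86% of all genes called and differences from -1.09 (EMP1) to 1.34 (TPPP3). H19, IGFBP3 and TPPP3 lay above all controls and EMP1 and CD9 below them, as did 26.1% and 23.7% of all genes. All 7 differences between 72 h and 24 h were negative, and 4 passed, EMP1, CD9, IGFBP3 and CRIP2, with 6.22% of all genes called lower. Without overlap, 6 of 7 genes were lower, TPPP3 being the exception, beside 17.9% of all genes. The 24 h and 72 h comparisons use the same control spleens.

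The calls rest on few mice. Without mouse 1, 4 or 6 the 24 h rise passed for CRIP2, GNLY and IGFBP3, and without mouse 5 also for H19, with all 7 differences between 1.63 and 2.72 in these settings. Leaving out only the mouse 1 spleen array gave the same 3 genes. Within BeadChip 1, which holds 1 control mouse, the 7 differences were 1.81 to 2.53 and 0 of 7 passed limma, 5 at an unadjusted p under 0.05. With BeadChip as a block 6 of 7 passed, EMP1 having limma adjusted p = 0.0601. For 72 h against 24 h, whose mice sit on different BeadChips, that block left 0 of 7 called by limma, 4 at an unadjusted p under 0.05, with differences of -3.09 to -1.21. Without mouse 1 EMP1 and IGFBP3 passed, without mouse 2 EMP1, GNLY, H19, CD9 and IGFBP3, without mouse 3 or mouse 9 EMP1, CD9 and IGFBP3, and without mouse 8 CRIP2 and GNLY. Against control at 72 h, GNLY (limma adjusted p = 0.0119) and TPPP3 (limma adjusted p = 0.0248) passed once mouse 9 was left out.

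In control mice the 7 genes followed the order marrow, spleen, blood. Every one of the 3 mice showed that order for each gene. This site gradient is part of how the genes were chosen, except for the position of spleen. EMP1 read 6.32, 6.19 and 6.21 in marrow and 12.01, 11.59 and 11.59 in blood, a 45-fold difference. CRIP2 read 6.62, 6.89 and 6.18 in marrow and 12.38, 11.94 and 12.90 in blood, a 57.5-fold difference. GNLY read 6.73, 6.36 and 6.08 in marrow and 12.00, 11.49 and 12.01 in blood, a 43.6-fold difference. By the probes used, these 3 genes were low but detected on 3 of 3 control marrow arrays. The other GNLY probes were each detected on 0 of 3. The probes used for H19, CD9, IGFBP3 and TPPP3 were detected on 0 of 3, so the differences of these probes are bounds. A second CD9 probe was detected on 3 of 3 control marrow arrays.

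H19 read 5.86, 5.87 and 5.48 in control marrow and 11.11, 10.85 and 11.14 in blood, at least 35-fold higher. CD9 read 5.08, 5.12 and 5.23 and 10.13, 9.97 and 10.33, at least 19-fold higher in blood by the probe used, whereas its second probe gave a blood minus marrow difference of -0.22. IGFBP3, at 5.61, 5.87 and 5.46 and 9.79, 9.47 and 9.59, was at least 13.1-fold higher in blood. In words, marrow and blood were separated in all 3 mice for each of these genes. TPPP3, at 4.66, 4.65 and 4.64 and 9.32, 9.48 and 10.08, was at least 13.2-fold higher in blood. Each bound raises marrow readings to the lowest detected signal of their array. Blood exceeded spleen by 1.04 (H19) to 2.24 (EMP1), and spleen exceeded marrow by 1.84 (IGFBP3) to 4.25 (H19) in fitted log2 units. Of all genes, 9.01% were called higher in control blood than control marrow, a share from which nothing is read for genes chosen on this contrast.

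**Figure D2:**
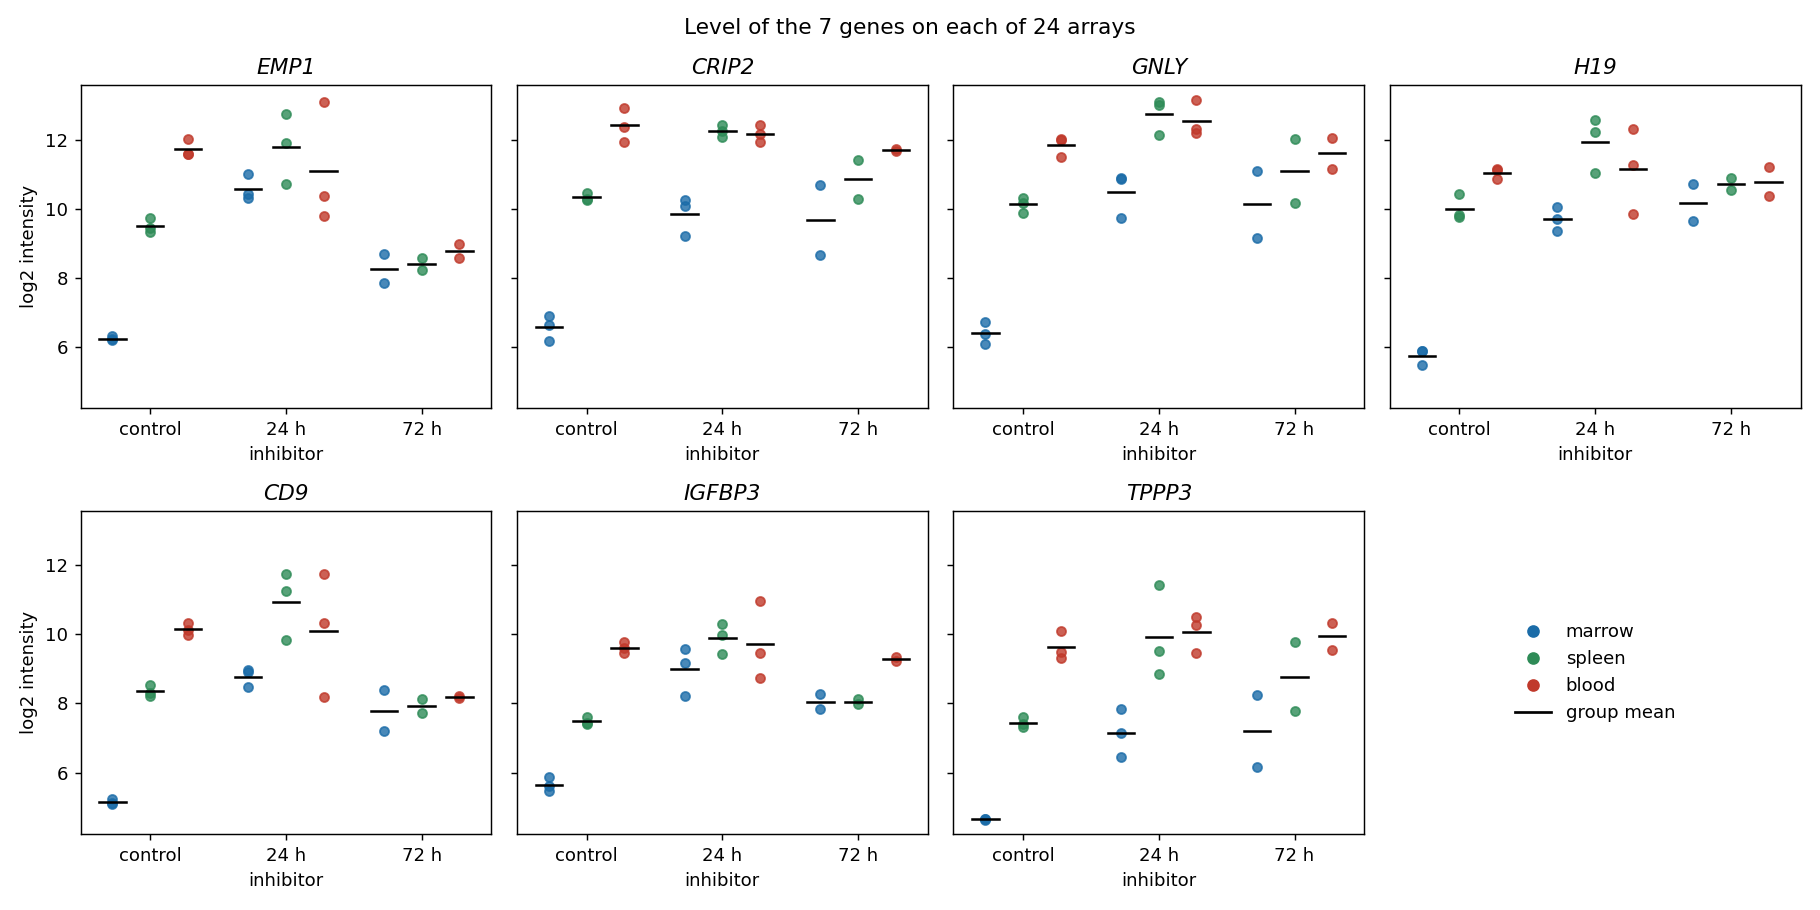
Log2 intensity of each gene on each of the 24 arrays, grouped by inhibitor time and coloured by site, with the group mean as a line. Control marrow holds the lowest 3 values of every gene.

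Treated marrow no longer matched control marrow in any of the 7 genes, which is again how they were chosen. EMP1 read 10.31, 10.41 and 11.01 in marrow after 24 h and 8.68 and 7.84 after 72 h. CRIP2 read 9.22, 10.25 and 10.08, then 10.68 and 8.66. GNLY read 9.73, 10.87 and 10.87, then 11.10 and 9.15. All of these exceed every control marrow array, and in the 72 h pair mouse 8 stood above mouse 9 for each gene. H19 read 9.35, 10.03 and 9.71 after 24 h and 10.70 and 9.65 after 72 h. CD9 read 8.47, 8.91 and 8.95 and 8.39 and 7.19, and IGFBP3 8.23, 9.57 and 9.18 and 8.27 and 7.83. TPPP3, with the largest SD in treated marrow, read 7.14, 7.85 and 6.45 and 8.23 and 6.16.

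Fitted differences from control marrow ran from 2.50 (TPPP3) to 4.34 (EMP1) at 24 h and from 2.02 (EMP1) to 4.44 (H19) at 72 h. EMP1 was 20.2-fold above control marrow at 24 h and 4.06-fold above it at 72 h, whereas H19 was at least 13.9-fold above it at 24 h and at least 19.4-fold above it at 72 h. From 24 h to 72 h EMP1 moved by -2.31 ± 0.65 in marrow without overlap, and CD9 by -0.99 ± 0.65, also without overlap. The other 5 genes overlapped between these times. The share of all genes without overlap was not computed for marrow, so nothing is read from these separations. Among all genes, 0.213% were called higher in marrow at 24 h and 1.63% at 72 h.

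Blood was already high in controls and differed least from them at 24 h, by -0.65 (EMP1) to 0.72 (GNLY). EMP1 read 10.37, 9.79 and 13.07 in blood after 24 h and 8.98 and 8.58 after 72 h. CD9 read 10.33, 8.20 and 11.75 and then 8.21 and 8.16. For both genes mouse 3 stood above mice 1 and 2 at 24 h, and both 72 h mice lay below all 3 controls. EMP1 in blood differed from control by -2.95 ± 0.65 at 72 h and CD9 by -1.96 ± 0.65. The other 5 genes differed from control by -0.72 (CRIP2) to 0.32 (TPPP3). CRIP2 read 12.17, 11.93 and 12.42 and 11.73 and 11.66, and GNLY 12.30, 12.19 and 13.16 and 12.05 and 11.14. H19 read 11.27, 9.84 and 12.30 and 10.37 and 11.19, IGFBP3 8.73, 9.45 and 10.98 and 9.36 and 9.24, and TPPP3 10.49, 10.28 and 9.46 and 10.33 and 9.55. At 72 h CRIP2 and IGFBP3 lay just below all control blood values, and GNLY, H19 and TPPP3 overlapped them. The share of all genes lying below every control was not computed for blood, so nothing is read from these positions.

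With inhibitor blood and marrow lay closer together for all 7 genes. Blood minus marrow, 3.97 to 5.84 in controls, was 0.50 (EMP1) to 2.93 (TPPP3) at 24 h and 0.40 (CD9) to 2.74 (TPPP3) at 72 h. TPPP3, CRIP2 and GNLY kept a blood-over-marrow difference in every mouse at both times. At 24 h blood minus spleen gave differences of -0.85 (CD9) to 0.14 (TPPP3), and blood and spleen overlapped for all 7 genes. At 72 h all 7 were positive, from 0.067 (H19) to 1.24 (IGFBP3). Spleen minus marrow, 1.84 (IGFBP3) to 4.25 (H19) in controls, was 0.91 (IGFBP3) to 2.79 (TPPP3) at 24 h and 0.0055 (IGFBP3) to 1.58 (TPPP3) at 72 h. Control marrow was below detection for H19, CD9, IGFBP3 and TPPP3 by the probe used, so their control differences from marrow are not exact. For TPPP3 spleen was at least 2.91-fold above marrow in controls and 6.92-fold above it at 24 h. Since control marrow and blood chose the genes, these differences are described and not tested.

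**Figure D3:**
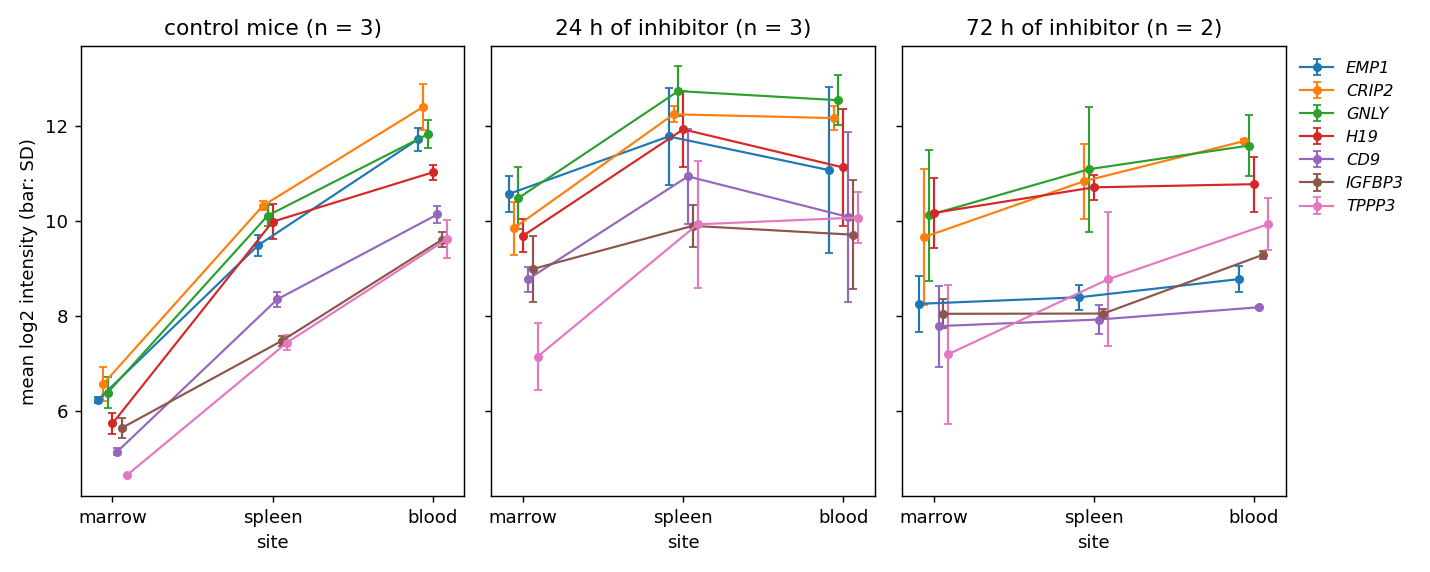
Mean log2 intensity by site in control mice (n = 3), after 24 h (n = 3) and after 72 h (n = 2), with the SD as bars and genes set slightly apart sideways. Lines climb from marrow to blood in controls, while EMP1 and CD9 are nearly level across sites at 72 h; levels are to be read within a gene.

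The 7 genes did not vary as 1 block. Deviations of each array from its group mean, which the choice of genes did not use, correlated over 24 arrays with a median of 0.50 across the 21 gene pairs, against 0.007 over all gene pairs. Of these 21, 19 were above 0, beside 50.6% of all gene pairs. Without the mouse 1 spleen array at 24 h, 17 were above 0. On the 9 control arrays 15 were above 0 (median 0.41, lowest -0.43), and on the 15 treated arrays 19 (median 0.52). Over all 24 arrays EMP1, CD9, H19 and IGFBP3 correlated with each other by 0.58 to 0.91, the highest being CD9 with H19. CRIP2, GNLY and TPPP3 correlated with each other by 0.50 to 0.84, the highest being CRIP2 with GNLY. TPPP3 against EMP1 gave -0.21. These sets were named after the values were seen, the pairs share arrays, and deviations within a group sum to 0. The spleen of mouse 1 was above its group mean for all 7 genes and that of mouse 2 for 0. In the 72 h marrow pair, mouse 8 was higher for all 7.

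**Figure D4:**
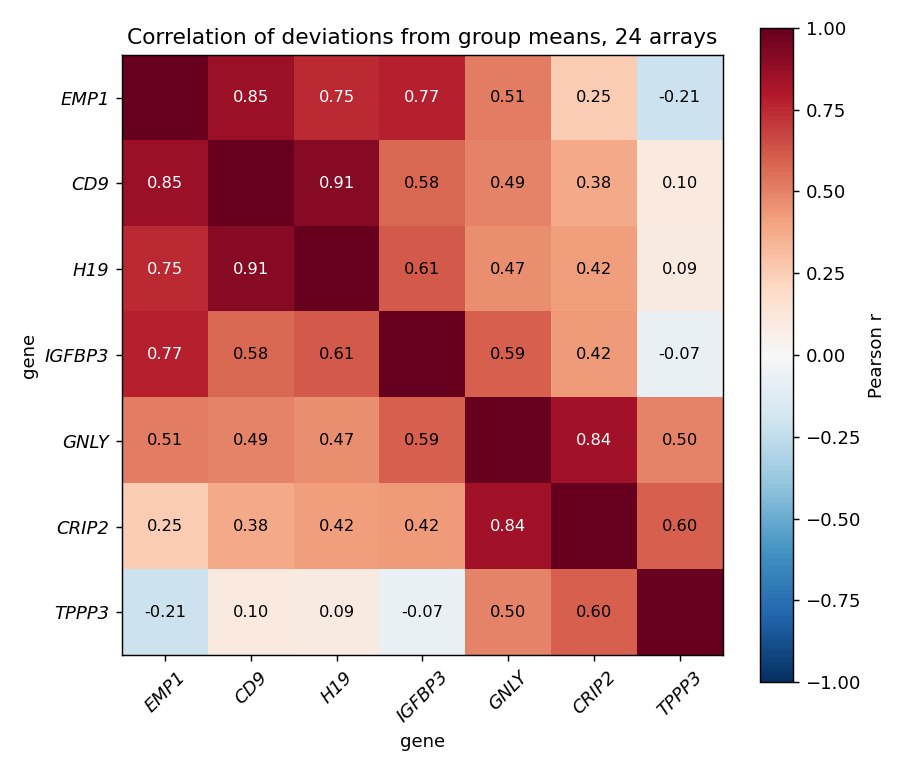
Pearson correlation, over 24 arrays, of the deviations of each pair of genes from their group means. EMP1, CD9, H19 and IGFBP3 form one warm square (0.58 to 0.91) and GNLY, CRIP2 and TPPP3 another (0.50 to 0.84).

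Other probes of the same genes were compared with the 7 used. The 7 genes have 12 probes, of which 11 passed the filter on detection. The second IGFBP3 probe tracked the first (r = 0.985 over 24 arrays). For GNLY the other probes tracked the probe used by 0.888 and 0.548, the latter detected on 6 arrays. Their 24 h minus control differences in spleen were 2.05 and 0.62, against 2.62 for the probe used. Control blood minus control marrow gave 1.81 and 0.80, against 5.44, with neither detected in control marrow. The second CD9 probe, detected on 17 of 24 arrays, did not follow (r = -0.13). Its 24 h minus control difference in spleen was -0.095, against 2.59 for the probe used. The second TPPP3 probe was detected on 0 of 24 arrays. CD9 results thus rest on 1 of 2 probes. With kept probes averaged, the 24 h rise in spleen was 1.25 for CD9 (limma adjusted p = 0.0173) and 1.76 for GNLY (limma adjusted p = 0.0123).

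Of 10344 other genes, 16 correlated above 0.9 with the mean standardised profile of the 7 over the 24 arrays. LMNA, which encodes A-type nuclear lamins, was closest (r = 0.955), then HAVCR2, the surface receptor TIM-3 (r = 0.945), and the large scaffold protein gene AHNAK (r = 0.942). ADGRE5, CALHM3, ANTXR2, BCL6, JAZF1, RIN2 and DPYSL3 completed the first 10 (r = 0.936 to 0.917). By single gene, the closest were MTSS1 to EMP1 (0.961), HAVCR2 to CRIP2 (0.968), LMNA to GNLY (0.954), S100A10 to H19 (0.925), JAZF1 to CD9 (0.961), RND3 to IGFBP3 (0.927) and RHOC to TPPP3 (0.965). The arrays share groups and mice, so these values describe likeness only.

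**Figure D5:**
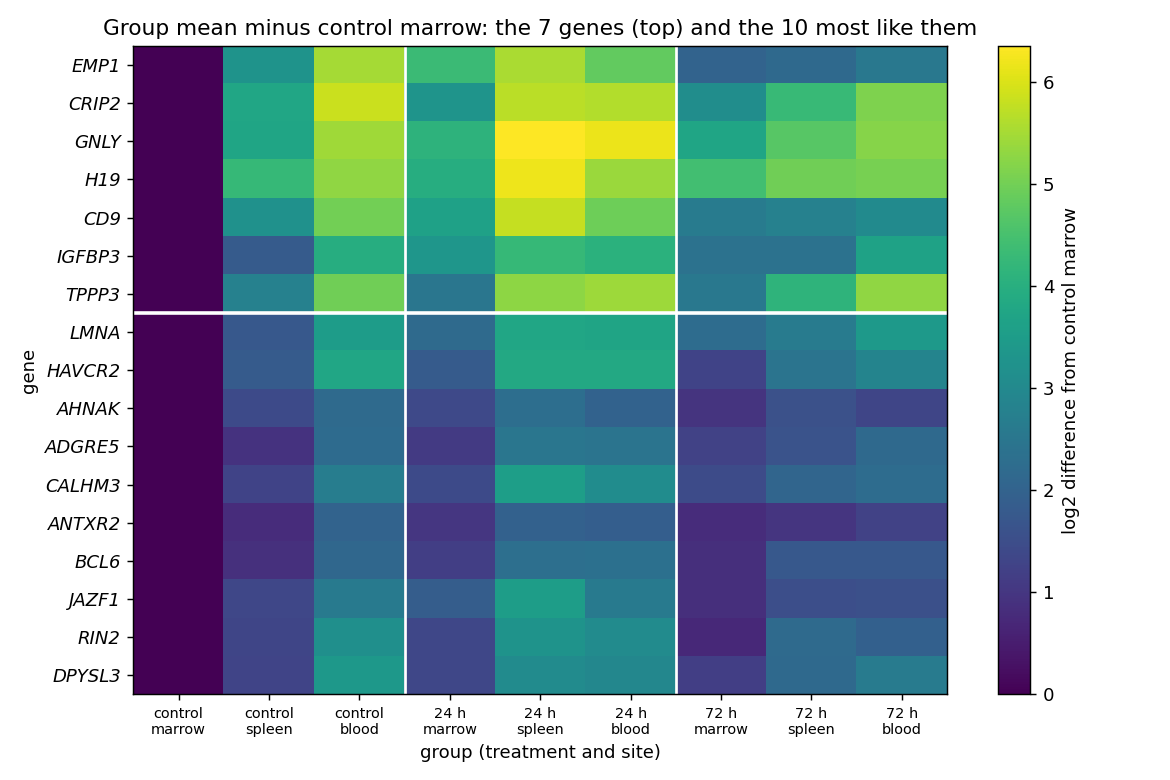
Group mean minus the control marrow mean, on the log2 scale, for the 7 genes (above the white line) and the 10 genes whose profiles over 24 arrays were most like theirs. All of these rows are lowest in control marrow.

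Of 86 listed relatives of the 7 genes 50 were tested. In spleen after 24 h, 4 were called higher and 2 lower, beside 6.55% and 5.96% of all genes, and the median was 0.11. At 72 h against control 0 passed limma, 17 at an unadjusted p under 0.05. In control blood against control marrow, 12 were called higher and 2 lower, beside 9.01% and 7.26% of all genes, with a median of 0.25. EMP3, from the EMP1 family, rose by 0.82 ± 0.24 in spleen at 24 h (limma adjusted p = 0.0306). Among 8 tested LIM proteins 2 rose there, CRIP1 by 1.17 ± 0.29 (limma adjusted p = 0.0136) and PDLIM1 by 1.96 ± 0.45 (limma adjusted p = 0.00845). CRIP1, another cysteine-rich LIM protein, also rose in marrow, by 1.72 ± 0.29 at 24 h (limma adjusted p = 0.0109) and 2.25 ± 0.33 at 72 h (limma adjusted p = 0.000991). In control blood CRIP1 was 9.42-fold above control marrow (limma adjusted p = 1.2e-06).

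Other cytolytic genes were read beside granulysin. Of 5 tested, 0 passed limma in spleen or marrow against control at either time. At an unadjusted p under 0.05 in spleen at 24 h there were NKG7 (0.74) and GZMB (1.28) above control and GZMA (-1.84) below it. In spleen at 72 h there were NKG7 (0.72) and GZMM (0.89) above control, in marrow at 72 h GZMA (1.84) above it, and in marrow at 24 h 0. GZMM was detected on 1 of 2 spleens at 72 h and 0 of 3 control spleens, and GZMA on 1 of 3 spleens at 24 h. GZMB, granzyme B, was at least 3.69-fold higher in control blood than marrow (limma adjusted p = 1.33e-05), and GZMA, granzyme A, was lower there by -1.86 ± 0.58 (limma adjusted p = 0.0419). Of 13 tetraspanins tested beside CD9, TSPAN5 alone was called in spleen at 24 h, at -1.40 ± 0.40 (limma adjusted p = 0.0281). Its probe was detected on 1 of 3 spleens at 24 h. CD151 and CD82 were higher in control blood than marrow, by 1.05 ± 0.23 and 0.68 ± 0.19.

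In the IGF axis 8 genes were tested beside IGFBP3. IGFBP6 rose by 0.93 ± 0.28 in spleen at 24 h (limma adjusted p = 0.0347), its probe having been detected on 1 of 3 control spleens. IGFBP5 encodes another IGF carrier. In spleen its 72 h minus 24 h difference was 2.71 ± 0.54 (limma adjusted p = 0.00618), and in marrow at 72 h it was at least 6.60-fold above control (limma adjusted p = 0.00185), its probe having been detected on 0 of 3 control marrow arrays. Of 5 tested imprinted genes, 0 passed limma in spleen at 24 h, with GRB10 and PHLDA2 at an unadjusted p under 0.05. Both were higher in control blood than marrow, GRB10 by 1.45 ± 0.32 and PHLDA2 at least 3.19-fold. Among 10 tested tubulins and TPPP relatives, TUBB, a beta tubulin, fell by 1.08 ± 0.23 in spleen at 24 h (limma adjusted p = 0.00528), the opposite direction to TPPP3. TUBB2A (1.12) and TUBB6 (0.62) were above control there, in the direction of TPPP3, at an unadjusted p under 0.05 only. In control blood against marrow TUBB2A, TUBB6 and TUBA4A were called higher and TUBB lower.

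Markers of other cells were read beside these results. Of 12 T and NK cell markers on the array, where GNLY is best known, 9 were detected on no array, among them CD3D, CD3E, NCR1 and KLRD1, whereas NCAM1 was detected on all 24 arrays. The summed background-subtracted intensity of the 12 was 816 to 970 in control marrow, 672 to 740 in control blood, 788 to 883 in control spleen and 465 to 1390 in spleen at 24 h. Of 11 platelet markers, where CD9 is abundant, 7 were detected on no array, PF4 and GP9 included, whereas GP1BA was detected on all 24. The sums of the 11 were 165 to 359 in control marrow, 201 to 269 in control blood, 253 to 277 in control spleen and 156 to 278 in spleen at 24 h. Among endothelial markers 6 of 8, including CDH5, VWF, KDR and TEK, were detected on no array. The sum moved with the 7 genes, from 510 to 605 in control marrow to 1043 to 1652 in control blood and 1252 to 4217 in spleen at 24 h, through PECAM1 and CLDN5. Its part in the results was not tested. The erythroid sum, mostly HBA2, was 17541 to 20818 in control spleen and 15310 to 19535 in spleen at 24 h. In marrow, where the 7 genes were above control after treatment, it was 8085 to 13898 in controls, 13000 to 18846 at 24 h and 20520 to 22096 at 72 h. In blood, where EMP1 and CD9 were below control at 72 h, it was 1317 to 7620 in controls, 1161 to 17344 at 24 h and 20580 to 23607 at 72 h. Its part in these results was not tested. Of 6 line markers on the array CEBPA, LYZ and MEIS1 were detected on all 24 arrays, whereas MPO was detected on 0. SPI1, the gene for PU.1, was detected on 23 and averaged 7.69 in control marrow and 6.23 in marrow at 24 h. PTPRC, which encodes the sort marker CD45, was detected on 13. It averaged 5.66, 6.19 and 7.18 in control marrow, spleen and blood, 6.96 in spleen at 24 h and 4.84 in spleen at 72 h. The part of SPI1 and PTPRC in the results was not tested. CXCR4 itself differed by -0.26 ± 0.33 in spleen at 24 h (limma adjusted p = 0.67) and by -0.82 ± 0.37 at 72 h (limma adjusted p = 0.176).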

How the data were processed

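Human OCI-AML3 cells sorted from 8 mice were measured on Illumina HT12 BeadChips after 2 rounds of RNA amplification, per the labels. The authors deposited a table of mean probe intensity without background subtraction, with a detection p-value beside each intensity, exported by GenomeStudio per the submitters' processing notes (version not given in the sources used here). The deposited series matrix holds the same intensity minus 1 constant per array.

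Intensities were background-corrected (normal-exponential model from the detection p-values, offset 16), then log2 values were quantile normalised, with limma 3.58.1 in R 4.3.3. Probes with detection p under 0.01 on at least 3 of 24 arrays were kept, 17116 of 47231. The brightest kept probe stood for each gene, 10351 in all, through the platform's symbols. Treatment comparisons used 9 group means without a block, with 1 spread per gene pooled over all 24 arrays. Spreads differed between groups. For TPPP3 the SD was 0.012 in control marrow and 1.34 in spleen at 24 h, and for CRIP2 0.36 and 0.17. Site comparisons used mouse as a fixed replicate block, since title numbers name the animal. Deviations of same-mouse arrays correlated by 0.284 on average over 24 pairs. Tests were two-sided with Benjamini-Hochberg adjustment over all genes at 0.05. The 7 genes and all lists were chosen with earlier results of these data known. Named relatives are up to 4 per list with the smallest p in a comparison, and like genes are the 10 highest correlations with the 7 and 1 per gene. The script was tested on simulated data. Arrays give no counting interval, and their number limits precision.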

Additional observations from a re-analysis of the deposited data

Results flagged for a closer look

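For 4 of the 7 genes the effect of the inhibitor in spleen differed between 24 h and 72 h by a test of the difference itself (limma, adjusted over all genes), beside 6.22% of all genes called lower. The 72 h minus 24 h difference was -3.39 for EMP1, -3.02 for CD9, -1.85 for IGFBP3 and -1.41 for CRIP2 on the log2 scale. EMP1 and CD9 were also the 2 genes with values below control in spleen at 72 h, without a call. In blood at 72 h, 6 of the 7 genes, EMP1 and CD9 among them, had means below control. The 24 h and 72 h mice sat on different BeadChips, and with BeadChip as a block the differences were -3.09, -2.96, -1.82 and -1.34, with limma adjusted p of 0.0659, 0.0744, 0.0980 and 0.184. No group had 4 or more arrays, so single arrays were not screened as outliers.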

How the results depend on the processing

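All 7 genes kept a positive difference in spleen at 24 h and a negative one from 24 h to 72 h under every alternative run, but their calls did not. In spleen, 7, 0 and 4 of the 7 were called at 24 h against control, at 72 h against control and at 72 h against 24 h. Leaving out a mouse or the mouse 1 spleen array gave 3 to 7, 0 to 2 and 2 to 5. Unscaled series matrix values gave 2, 0 and 1, the BeadChip block gave 0 in the last, and genes detected on all arrays, which left 3 of the 7 to test, gave 3 in the first. Within BeadChip 1 0 passed limma at 24 h, 5 at an unadjusted p under 0.05. CRIP2 at 72 h against control ranged from -0.039 (without mouse 8) to 1.07 (without mouse 9) when 1 mouse was left out. Between the same settings GNLY ranged from 0.047 to 1.91 and TPPP3 from 0.33 to 2.34, and at 72 h against 24 h GNLY ranged from -2.58 (without mouse 8) to -0.72 (without mouse 9) and TPPP3 from -2.16 to -0.15. CXCR4 at 72 h against 24 h in spleen was -0.57 ± 0.37 by the probe used (limma adjusted p = 0.287). With probes averaged it came to 0.10, the opposite sign. The causes were not tested.

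Counts over all genes moved more. Spleen at 24 h against control called 1295 genes, with 189 from unscaled values, 0 within BeadChip 1 by limma (1216 at an unadjusted p under 0.05) and 339 to 1618 without 1 mouse. Spleen at 72 h against control called 89, with 5 unscaled, 27 with the BeadChip block, 0 within BeadChip 2 by limma (1895 unadjusted) and 0 to 2707 without 1 mouse, 0 without mouse 4 (limma, 1441 unadjusted). Spleen at 72 h against 24 h called 1366, with 88 unscaled, 135 with the block and 298 to 2809 without 1 mouse. Marrow at 24 h called 22, with 12 without background correction, 9 unscaled, 10 with the block, 0 within BeadChip 1 by limma (332 unadjusted) and 7 to 62 without 1 mouse. Marrow at 72 h called 269, with 56 unscaled, 118 with the block, 60 within BeadChip 2 and 36 to 277 without 1 mouse. Control blood against marrow called 1684, with 398 unscaled, 1037 without a replicate block and 309 to 786 without 1 mouse. Mouse as a random replicate block gave 1311, 125, 1471, 21 and 307 for the treatment comparisons in that order. Among the 7 genes in spleen it added GNLY to those called lower at 72 h than at 24 h, changing no other call. Unscaled values shifted the median of all genes by -0.20 in spleen at 72 h against control, -0.26 against 24 h, -0.13 and -0.39 in marrow at 24 h and 72 h, and -0.13 for blood against marrow. They split marrow calls at 72 h into 19 higher and 37 lower, against 169 and 100, and blood calls into 266 and 132, against 933 and 751. Signals near background limit the 4 genes whose probe used was not detected in control marrow, where its differences are bounds.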
